A study of Mus musculus with 14 samples.

Results

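The S phase genes are 41 genes whose transcripts accumulate while a cell prepares to copy, or is copying, its DNA, and they make up 41 of the 31054 genes in the count matrices. They were taken by name from a list of S phase marker genes of the kind used to score cell cycle phase. By role, 8 belong to origin licensing and the replicative helicase, 7 to the polymerases, the sliding clamp and lagging strand synthesis, 3 to nucleotide supply, 8 to chromatin and histones, 8 to checkpoint and repair and 2 to cell cycle regulation. The other 5 (Cenpu, Wdr76, Ubr7, Polr1b and Mrpl36) have no shared role in replication.

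The levels were read from single-cell RNA sequencing of TdTom+ cells, which descend from cells that expressed the bHLH transcription factor Atoh1, sorted by FACS from C57BL/6J mice. At E14.5 and at E18.5, the whole hindbrain of 1 embryo was used per library, with 3 control libraries (Ctrl, Atoh1Cre/+; Rosa lsl-tdTomato/+) and 3 libraries of littermates with a hypomorphic Atoh1 allele over Cre (Atoh1S193A/-; Rosa lsl-tdTomato/+). At P5, 2 control libraries were made from pontine nuclei that were dissected out and pooled from several pups. Because Cre replaces the Atoh1 coding region, the controls carry 1 working copy of Atoh1, and the Atoh1S193A/- embryos carry the hypomorphic copy alone. The matrices count the 3′ ends of transcripts and do not read the amino acid substitution, so the genotype labels were not checked from it.

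DNA replication begins when the loading factor Cdc6 helps to place the MCM ring on origins, where it later joins Cdc45 and the GINS complex to become the active helicase, while geminin blocks a repeated loading. The primase and polymerases then copy both strands around the sliding clamp PCNA, ribonucleotide reductase and thymidylate synthase supply the building blocks, and histone chaperones package the new DNA. Many of these genes are induced together by E2F transcription factors. In the hindbrain, Atoh1+ progenitors of the caudal rhombic lip leave the cell cycle before they migrate towards the pons as future pontine neurons, whereas granule cell progenitors of the cerebellum go on dividing in the external granule layer.

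The 14 libraries held between 108239001 and 236964126 UMIs (unique molecular identifiers, each counting 1 captured transcript), and 80256 cells were kept, from 3248 to 8726 per library. Clusters were made without the S phase genes and were named by marker genes, so each name ends in "-like". The S phase gene level of a class is given as CPM, the UMIs of a gene per 1000000 UMIs summed over the cells of that class in a library. At E14.5 the controls yielded 245 pontine progenitor-like cells (66, 104 and 75 per library) and the Atoh1S193A/- libraries 1126 (347, 314 and 465). A further cluster had Zic1, Pax6 and Atoh1, low Hoxa3, Hoxb3, Hoxb4 and Hoxb5, and Barhl1 under the limit used for naming. This Hox-low cluster, called the Barhl1-low progenitor cluster here, held 646 cells of controls and 1826 of Atoh1S193A/- libraries. Its leading genes were Rspo1, Id3, Msx1, Id1, Rfx4, Rspo3, Sparc, Dkk3, Htra1 and Phgdh, of which Id1 and Id3 stand in the list of progenitor markers and the others in no marker list. The E14.5 pontine classes were named by Hox genes, Pax6 and low Lhx2, and then by the marker list with the highest score. Atoh1 stands in the list of intermediate progenitors, and Barhl1 in the regional list used to check the leading genes. Since both genes thus took part in the naming, these cell numbers were not tested between genotypes. The second P5 library stood apart: it held 295 of the 299 cells of a cycling cluster and 419 granule neuron-like cells, against 10 granule neuron-like cells in the first. Levels at P5 are therefore given for each library. The labels call the sorted cells neurons, but every embryonic library also held progenitor-like classes.

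For 31 of the 41 genes, promoter windows from 250 bases before to 50 bases after a start of transcription were read from RefSeq (GRCm38.p6), 35 windows in all, and the other 10 genes were not searched. The windows were searched on both strands for 4 forms of the E2F recognition sequence, TTTCCCGC, TTTGGCGC, TTTCGCGC and TTTGCCGC, which can overlap one another. Of the 31 genes, 13 (41.9%) had a window that held at least 1 form, against 2.60% of the 27025 genes with a window. The shares were 40.5% of 42 other replication genes and 6.38% of 47 genes of G2 and M phase. The CCAAT box was found in a window of 67.7% of the S phase genes and of 41.1% of all genes. The 13 genes were Mcm5, Mcm6, Mcm7, Cdc6, Pola1, Pold3, Uhrf1, Hells, Cdca7, Casp8ap2, Clspn, Dtl and Ubr7. A match describes letters in a window and does not show that a factor was bound. Windows of 5 genes that recur in the results are printed 5′ to 3′ along the strand of the gene, with the E2F forms in capitals; Mcm6, Mcm5 and Hells hold such letters, and Rad51ap1 and Mrpl36, of which neurons kept very unequal shares, hold none.
Mcm6, chr1:128359656-128359955, minus strand: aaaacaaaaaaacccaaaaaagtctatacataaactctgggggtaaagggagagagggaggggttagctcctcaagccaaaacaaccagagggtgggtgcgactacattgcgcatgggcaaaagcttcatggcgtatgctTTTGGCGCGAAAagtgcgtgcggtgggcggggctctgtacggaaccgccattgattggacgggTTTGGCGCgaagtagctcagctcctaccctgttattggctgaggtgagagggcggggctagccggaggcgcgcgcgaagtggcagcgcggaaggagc
Mcm5, chr8:75109259-75109558, plus strand: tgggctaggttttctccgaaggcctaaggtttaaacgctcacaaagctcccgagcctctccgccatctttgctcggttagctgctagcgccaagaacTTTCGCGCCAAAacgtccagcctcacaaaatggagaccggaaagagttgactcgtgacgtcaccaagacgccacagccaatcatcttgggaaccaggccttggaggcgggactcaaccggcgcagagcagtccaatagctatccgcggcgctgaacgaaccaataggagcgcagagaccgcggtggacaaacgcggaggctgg
Hells, chr19:38930740-38931039, plus strand: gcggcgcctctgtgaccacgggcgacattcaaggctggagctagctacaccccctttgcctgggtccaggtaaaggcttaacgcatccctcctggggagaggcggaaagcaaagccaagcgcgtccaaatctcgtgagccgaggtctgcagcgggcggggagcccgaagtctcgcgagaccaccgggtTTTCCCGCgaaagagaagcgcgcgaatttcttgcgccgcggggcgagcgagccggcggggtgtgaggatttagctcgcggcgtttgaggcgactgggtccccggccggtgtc
Rad51ap1, chr6:126939538-126939837, minus strand: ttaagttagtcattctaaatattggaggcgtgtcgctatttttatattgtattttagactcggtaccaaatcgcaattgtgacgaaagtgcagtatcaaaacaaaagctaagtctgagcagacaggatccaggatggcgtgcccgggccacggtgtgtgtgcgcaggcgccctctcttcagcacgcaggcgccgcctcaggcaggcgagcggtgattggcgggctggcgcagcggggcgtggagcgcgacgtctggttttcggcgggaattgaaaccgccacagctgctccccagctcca
Mrpl36, chr13:73330759-73331058, plus strand: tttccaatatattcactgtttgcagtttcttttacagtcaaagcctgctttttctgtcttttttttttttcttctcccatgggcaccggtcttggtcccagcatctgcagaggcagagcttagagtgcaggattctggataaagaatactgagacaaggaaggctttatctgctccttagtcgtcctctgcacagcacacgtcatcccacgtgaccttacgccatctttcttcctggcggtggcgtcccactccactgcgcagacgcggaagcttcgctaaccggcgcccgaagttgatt

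Summed over the 41 genes, the level separated progenitors from neurons at both embryonic stages (the plot of summed levels by class). In the E14.5 controls it was 4625 ± 275 CPM in pontine progenitor-like cells (SD, n = 3; 4312, 4734 and 4828 in the libraries) and 773 ± 22.8 CPM in pontine neuron-like cells (SD, n = 3). Pontine intermediate progenitor-like cells, which express Atoh1 with the differentiation genes Hes6 and Gadd45g, stood at 1117 ± 208 CPM. The members of that class depend on the clustering, and with finer clusters (Leiden resolution 2.0) it stood at 1508 ± 214 CPM. Granule progenitor-like cells reached 4893 ± 389 CPM at E14.5 and 5260 ± 151 CPM at E18.5, while granule neuron-like cells reached 782 ± 41.2 and 785 ± 22.9 CPM. The ranges of the progenitor and neuron libraries lay far apart in each of these pairs. No test was made between classes, since cells were clustered on genes that follow the cell cycle as well.

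**Figure D1:**
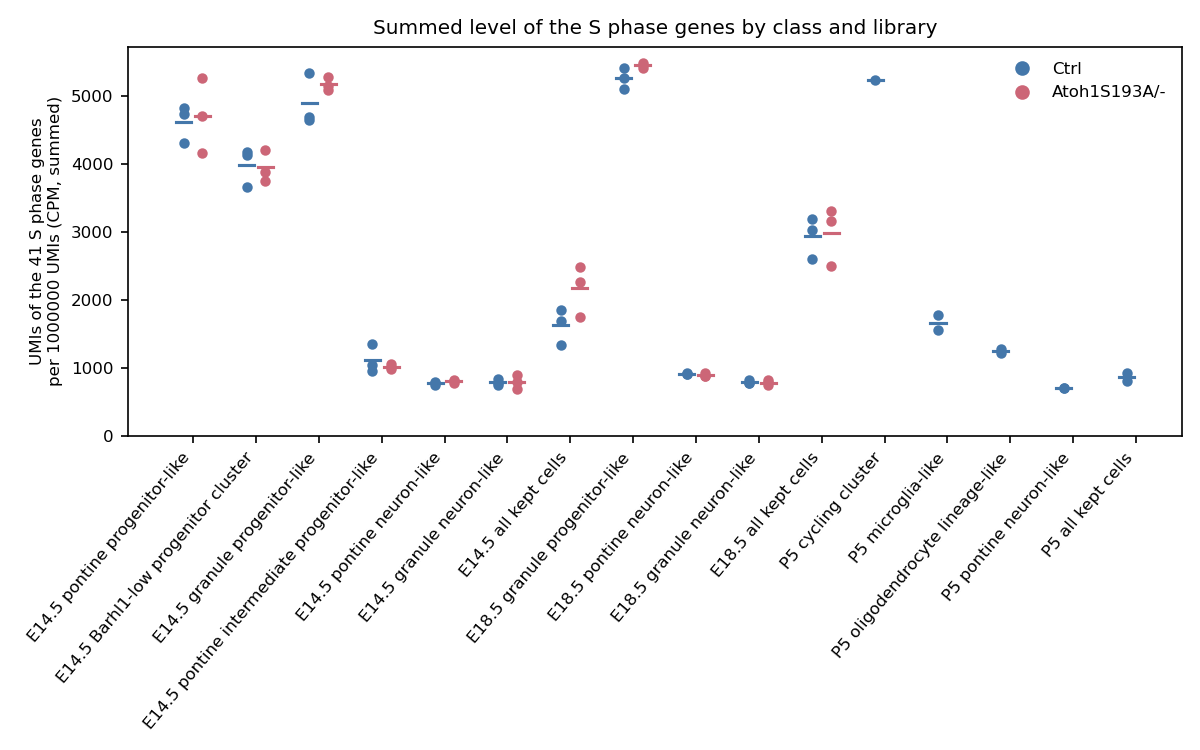
Summed CPM of the 41 S phase genes (vertical axis, from 0) in each class and stage, with 1 point per library and a bar at the mean of each genotype. Libraries of the pontine, granule and Barhl1-low progenitor classes lie between 3656 and 5482 CPM, the P5 cycling cluster at 5232 CPM and the pontine and granule neuron-like classes between 691 and 917 CPM.

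Within the classes the genes were spread over many cells. After each cell was thinned to 5000 UMIs, the median pontine progenitor-like cell of a control library held 18 to 22 S phase UMIs, and 83.9% ± 9.31 of the cells held 10 or more (SD, n = 3). In E18.5 granule progenitor-like cells the medians of the control libraries were 23 to 25 UMIs and the share was 88.6% ± 1.14. Pontine intermediate progenitor-like cells had medians of 4 to 5 UMIs with 6.48% ± 4.97 of cells at 10 or more, and E14.5 pontine neuron-like cells a median of 4 UMIs with 0.858% ± 0.156. Thinning left out 2 control pontine progenitor-like cells and 59 control E18.5 granule progenitor-like cells that were shallower. Whether free RNA in the droplets adds to the neuron values was not tested.

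In the controls, all 41 genes had a UMI in at least 10% of pontine progenitor-like, granule progenitor-like and Barhl1-low progenitor cells, whereas 27 did so in intermediate progenitor-like cells, 24 in E14.5 pontine neuron-like cells and 23 in E14.5 granule neuron-like cells. For each gene, the class with the highest mean CPM in either genotype was most often the E18.5 granule progenitor-like class (15 genes), followed by the P5 cycling cluster (10 genes) and the E14.5 granule progenitor-like class (9 genes). The 9 included the nucleotide supply genes Rrm2 and Tyms, the MCM loading factor gene Cdc6, the flap endonuclease gene Fen1 and the histone mRNA binding gene Slbp. E14.5 pontine progenitor-like cells were highest for 3 genes, Mcm4, Mcm5 and Gmnn, all of them genes of licensing. The Barhl1-low progenitor cluster was highest for Rfc2, a subunit of the clamp loader, the uracil DNA glycosylase gene Ung and Polr1b, a subunit of RNA polymerase I, and Mrpl36, a mitochondrial ribosomal protein gene, in P5 oligodendrocyte lineage-like cells.

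**Figure D2:**
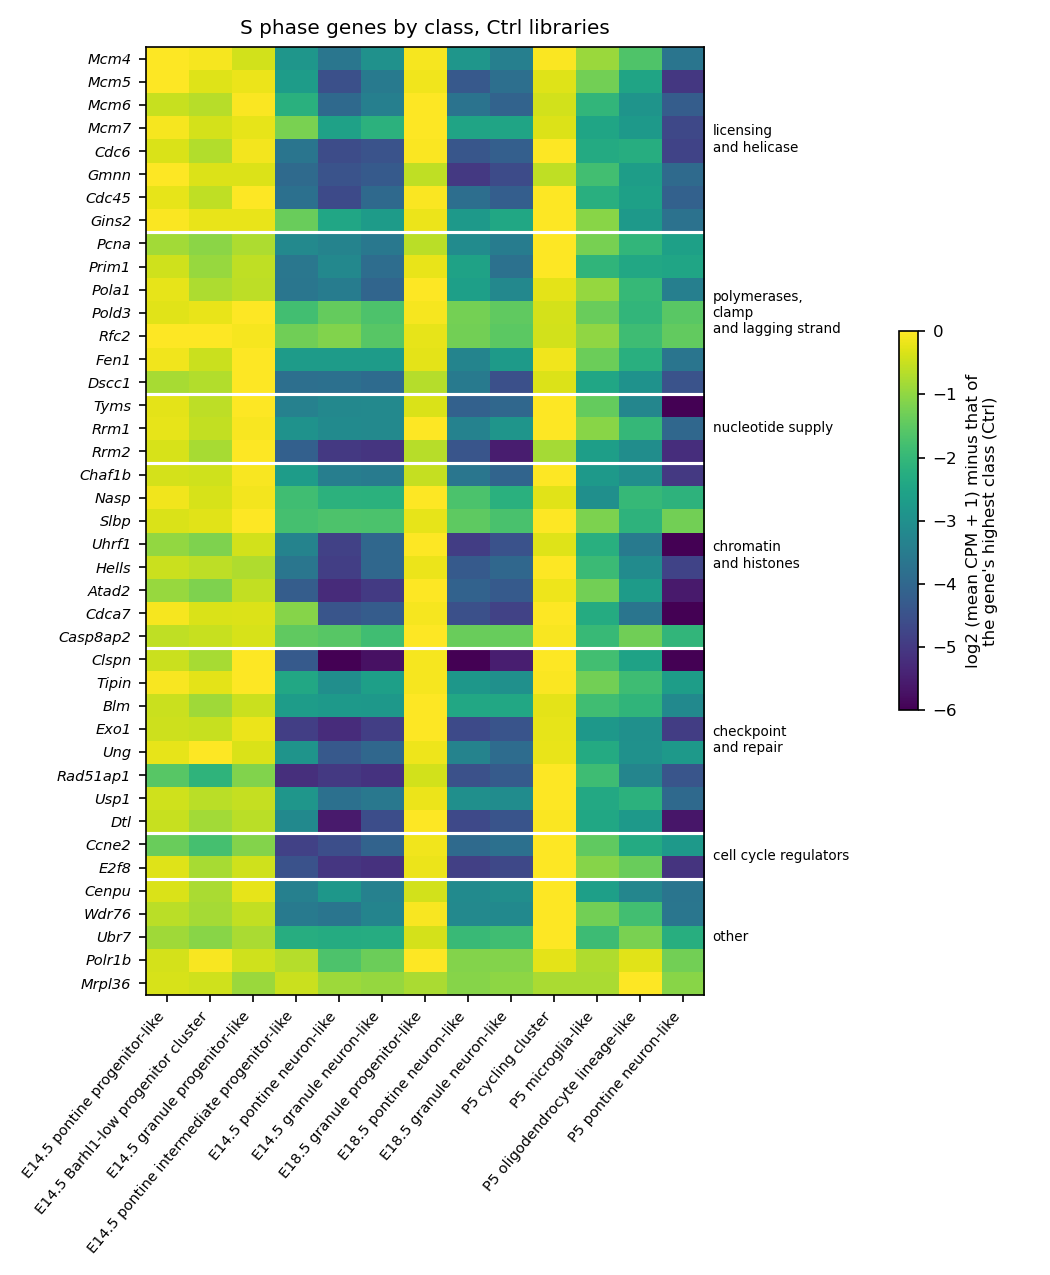
Level of each S phase gene (rows, grouped by role) in each class of the control libraries (columns), as log2 (mean CPM + 1) minus that of the class in which the gene is highest, so that 0 is the highest class. The row for Clspn is among the darkest in the neuron classes, and Mrpl36 stays near its highest value in most classes.

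From pontine progenitor-like to pontine neuron-like cells at E14.5, all 41 genes had lower CPM in each control neuron library than in each control progenitor library. Of the genes that passed the filter on low values (a UMI in at least 10% of cells) in this pair of classes, 32.3% of 9952 behaved in this way. The 41 genes included Polr1b, which did not pass in this pair. Since 24 of the 41 reached the filter in neurons, the others passed through the progenitors alone, where they were high, and nothing is read from the counts for pairs of classes. In Atoh1S193A/- libraries all 41 were again lower (33.6% of 10279 genes were). The median S phase gene in neurons was at 9.57% of its progenitor level in controls and 9.66% in Atoh1S193A/- libraries. Over all genes that passed, the median was 105% and 103%. The S phase medians include the genes that passed through the progenitors alone, so they too are a description and nothing is read from them.

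Among the licensing and helicase genes, Mcm5, a subunit of the MCM ring, stood at 106, 107 and 121 CPM in the control progenitor libraries and at 3.62, 4.01 and 3.87 CPM in the neuron libraries, 3.44% of the progenitor mean. Its partner subunit Mcm6 kept more of its level, with 200, 175 and 167 CPM in progenitors and 17.7, 15.8 and 14 CPM in neurons (8.78%). Gmnn, which encodes the licensing inhibitor geminin, had 171, 151 and 183 CPM against 7.04, 6.87 and 6.12 CPM (3.97%). Cdc6, which encodes the MCM loading factor, was at 21.1, 22.5 and 29.6 CPM in progenitors and was almost undetected in neurons, with 3, 6 and 4 UMIs in the libraries.

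The polymerase and clamp genes spanned a wide range. Pcna, the sliding clamp gene, had 139, 122 and 142 CPM in control progenitors and 27.3, 18.5002 and 24.3 CPM in neurons (17.4%). Fen1, whose product trims Okazaki fragments, had 73.7, 75.3 and 75.2 CPM against 12.6, 11.0 and 10.9 CPM (15.4%). These 2 genes therefore kept a larger share of their level than the MCM genes named above. The polymerase delta subunit gene Pold3 kept more still, at 67.8, 64.9 and 64.5 CPM against 31.9, 26.6 and 29.3 CPM (44.5%), and Rfc2 kept 45.3%.

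Of the nucleotide supply genes, Rrm2, the S phase subunit of ribonucleotide reductase, had 208, 211 and 222 CPM in progenitors and 9.42, 6.33 and 7.17 CPM in neurons (3.58%). Tyms, which encodes thymidylate synthase, had 158, 197 and 199 CPM against 25.5, 24.2 and 19.2 CPM (12.4%). Neither gene had overlapping libraries.

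Among chromatin and histone genes, Hells, a chromatin remodeller needed for DNA methylation, had 136, 175 and 156 CPM in progenitors and 6.52, 6.46 and 5.91 CPM in neurons (4.05%). Uhrf1, which recognises hemimethylated DNA behind the fork, had 71.5, 101 and 76.6 CPM against 4.66, 5.03 and 4.5 CPM (5.71%). In contrast, Slbp, which binds the stem loop of replication-dependent histone mRNAs, remained at 70.0, 61.5 and 63.4 CPM in neurons from 155, 161 and 172 CPM (39.9%). Casp8ap2, another gene linked to histone transcription, kept 50.4%, with 84.6, 103 and 94.0 CPM in progenitors and 49.99, 48.0 and 43.7 CPM in neurons.

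Checkpoint and repair genes held 3 of the 5 lowest shares, all 3 from genes below the filter in neurons. Summed over all checkpoint and repair genes, control progenitors held 649, 709 and 754 CPM and neurons 56.1, 51.6 and 56.4 CPM. The licensing and helicase genes, summed the same way, held 925, 922 and 966 CPM against 98.5, 90.5 and 81.4 CPM. Clspn, which encodes the fork checkpoint mediator claspin, had 73.7, 95.7 and 100 CPM in progenitors and 0.725, 0.612 and 0.733 CPM in neurons (0.77%), from 7, 9 and 14 UMIs. Exo1, an exonuclease of mismatch repair, had 30.6, 40.8 and 39.0 CPM against 0.311, 0.340 and 0.471 CPM (1.02%). Dtl, the adaptor that targets licensing factors for destruction on chromatin, had 56.9, 78.7 and 90.7 CPM against 1.55, 1.36 and 0.890 CPM (1.68%). Ung, which removes uracil from DNA, kept 3.42% of its progenitor level.

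Both cell cycle regulators were close to undetected in neurons. E2f8, an atypical E2F that represses E2F targets, had 40, 62 and 47 UMIs in the progenitor libraries and 2, 1 and 1 UMIs in the far more numerous neurons. Ccne2, which encodes cyclin E2, stood at 12.4, 18.3 and 21.5 CPM against 1.14, 0.680 and 1.26 CPM (5.89%). At the other end, Mrpl36 had 97.7, 84.9 and 105 CPM in progenitors and 66.1, 64.4 and 69.8 CPM in neurons (69.5%), the highest share of the 41. The 5 lowest shares thus belonged to E2f8, Clspn, Exo1, Cdc6 and Dtl and the 5 highest to Slbp, Pold3, Rfc2, Casp8ap2 and Mrpl36.

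**Figure D3:**
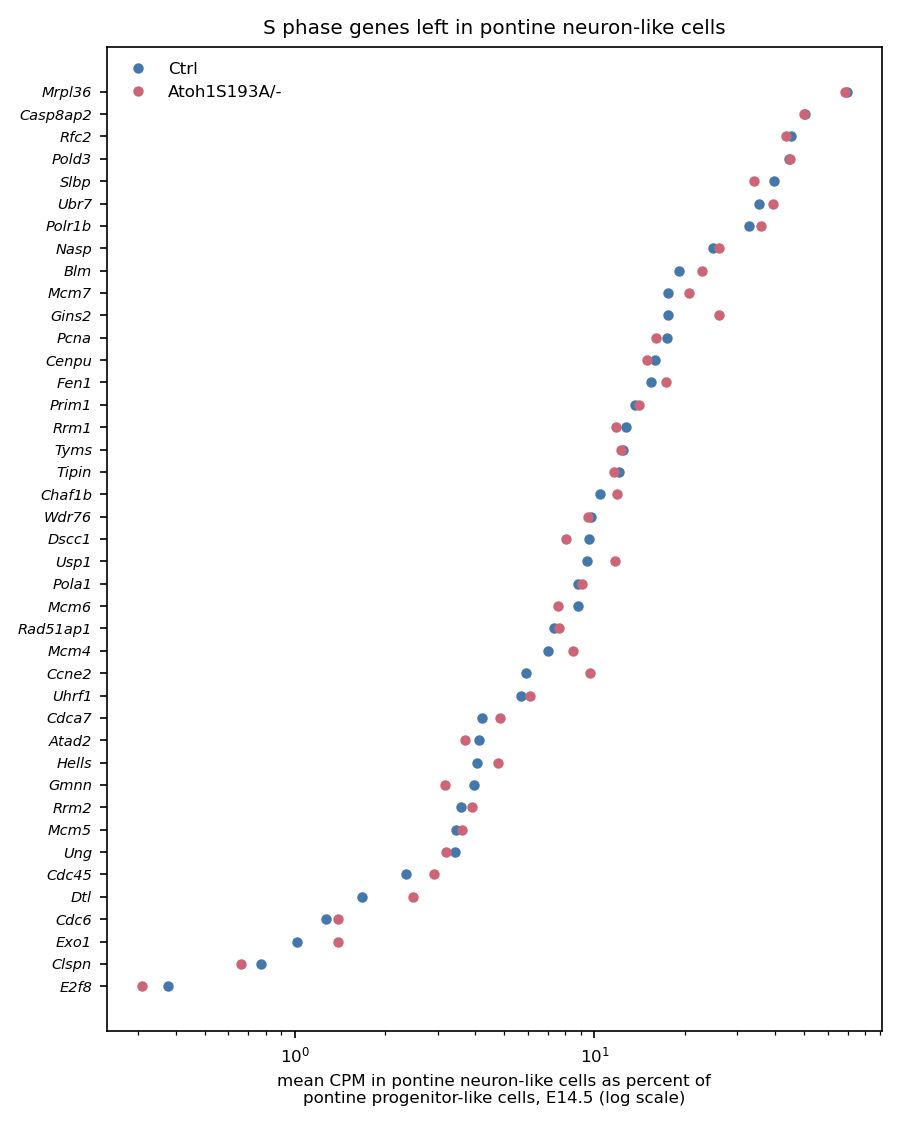
Mean CPM of each S phase gene in E14.5 pontine neuron-like cells as a percent of its mean CPM in pontine progenitor-like cells (log axis), with 1 point per genotype. Controls run from 0.77% for Clspn and lower for E2f8, which rests on 4 UMIs, up to 69.5% for Mrpl36, and the median is 9.57% in controls and 9.66% in Atoh1S193A/-.

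The level of the intermediate progenitor-like class rested on the clustering. At the resolution used here, 2 clusters (939 and 359 cells) that the marker limits also pointed to this class were left unnamed by the check of their leading genes. With finer clusters the class took in a cluster of 238 cells led by Ube2c, Prc1, Cenpf, Nusap1 and Top2a, genes of dividing cells, and other cells, and its summed level went from 1117 to 1508 CPM in controls and from 1010 to 1844 CPM in Atoh1S193A/- libraries. The order of the genotypes thus turned, and single values of this class hold for the clusters used here.

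In the E14.5 controls, 39 of the 41 genes were lower in each intermediate progenitor-like library than in each progenitor-like library (23% of all genes that passed the filter were), and in Atoh1S193A/- libraries 39 again (27.3% were). Mrpl36 and Polr1b overlapped in both genotypes. The median S phase gene stood at 14.8% of its progenitor level in controls and 12.7% in Atoh1S193A/- libraries, and with finer clusters at 23.4% and 31.9%. Counts and medians are again a description.

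Pcna had 29.0, 25.5 and 23.5 CPM in the control intermediate progenitor-like cells (19.3% of the progenitor level), close to its share in neurons. Mcm6, with 59.0, 69.7 and 37.6 CPM, kept 30.7%, well above its share in neurons. Rrm2 varied between libraries, at 9.66, 31.5 and 2.68 CPM (6.84%). With 115, 74 and 105 cells in these libraries, single genes were measured from few UMIs.

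The granule lineage gave a similar picture. In the E14.5 controls, 40 of the 41 genes were lower in each granule neuron-like library than in each granule progenitor-like library (28% of all genes that passed the filter), and at E18.5 all 41 were (34.5%). In Atoh1S193A/- libraries the counts were 40 (26.4% of all genes) and 41 (34.5% of all genes). Mrpl36 was the gene that overlapped at E14.5 in both genotypes, and Polr1b was counted without passing the filter in the E14.5 controls and the E18.5 Atoh1S193A/- libraries. These counts and the medians that follow are a description too. The median S phase gene in granule neuron-like cells kept 9.29% of its progenitor level at E14.5 and 7.60% at E18.5 in controls.

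At E18.5, Mcm6 stood at 257, 273 and 243 CPM in control granule progenitor-like cells and at 16.8, 13.3 and 12.8 CPM in granule neuron-like cells. Rrm2 stood at 195, 169 and 165 CPM against 6.59, 3.82 and 4.86 CPM. Clspn was again close to undetected in neurons, with 116, 125 and 113 CPM against 1.78, 1.64 and 1.91 CPM. Genes that stayed high in pontine neuron-like cells did so here too: Slbp had 185, 179 and 169 CPM against 64.3, 60.4 and 63.5 CPM, and Mrpl36 kept 83.6% of its level.

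The share of a library's S phase UMIs that came from each class was followed over genotypes and stages. In the E14.5 controls, pontine progenitor-like cells gave 5.45% ± 1.80 of all S phase UMIs of the kept cells, the Barhl1-low progenitor cluster 11.2% ± 1.17 and granule progenitor-like cells 34.4% ± 10.5 (SD, n = 3). In the Atoh1S193A/- libraries of that stage, the shares were 15.2% ± 1.90, 20.5% ± 6.31 and 28.6% ± 13.7. By E18.5, granule progenitor-like cells gave 79.6% ± 3.1 in controls and 80.0% ± 5.47 in Atoh1S193A/- libraries.

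The first question of the design was whether the hypomorphic Atoh1 allele changed the S phase genes. Over all kept cells at E14.5, the summed level was 1845, 1332 and 1687 CPM in the control libraries and 2482, 1753 and 2263 CPM in the Atoh1S193A/- libraries. The groups overlapped, but the Atoh1S193A/- embryo was higher than its control littermate in each of the 3 litters. In such sums, more cells of a dividing type and more of these transcripts per cell cannot be told apart.

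When the genotypes were compared without regard to litter, edgeR called 0 of the 37 S phase genes that passed the filter (a call needed an adjusted p under 0.05 and a log2 change over 0.25 in size), and it called 0% of all 9972 genes. At an unadjusted p under 0.05 there were 14 of the 37 genes (11.3% of all genes), and DESeq2 called 3 (2.06% of all genes). The median log2 change of the 37 was 0.51, against 0.01 for all genes, and the libraries did not overlap for 13 genes, all of them higher in Atoh1S193A/- (10.3% of all genes were higher without overlap). Cdc6, Ccne2, E2f8 and Polr1b did not pass the filter. For this comparison, simulated 1.5-fold changes were found for 25 of 100 genes.

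The smallest p belonged to Blm and Hells. Blm, which encodes the Bloom helicase, had 16.5, 14.3 and 16.2 CPM in controls and 22.8, 21.7 and 22.3 CPM in Atoh1S193A/- libraries, with a log2 change of 0.49 ± 0.10 (SE) and an edgeR adjusted p = 0.320. Hells had 38.2, 27.7 and 40.7 CPM against 71.8, 52.1 and 67.2 CPM, with a log2 change of 0.83 ± 0.19 and an edgeR adjusted p = 0.336. Neither gene overlapped between genotypes.

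Same-numbered libraries are littermates and deviated together, and with the litter as a block in the same edgeR fit, 34 of the 37 genes rose in Atoh1S193A/- embryos and 0 fell. In that fit 16.6% of all genes were called, 9.82% as higher and 6.79% as lower. The median log2 change of the 37 was 0.50, against 0.01 for all genes. CPM was higher in all 3 litters for 36 of the 37 genes, which held for 35.5% of all genes. The file headers name Cell Ranger 3.1.0 for the controls of litters 1 and 2 and 5.0.1 for their Atoh1S193A/- littermates and both libraries of litter 3, while the labels name 5.0.1 for every library. The median difference of the 37 genes on the log2 scale was 0.46, 0.49 and 0.52 in litters 1, 2 and 3, against -0.01, 0.06 and 0.04 for all genes. Mrpl36 (log2 change -0.01), Rfc2 (0.13) and the histone chaperone gene Nasp (0.21) were not called. Barcodes with at least 1000 genes and under 5% mitochondrial UMIs were 3511 of 7972, 6867 of 10407 and 7100 of 12869 in the controls. In their littermates they were 5160 of 9672, 7474 of 9000 and 7104 of 10812, a larger share in each litter. The blocked fit was not repeated with a mitochondrial limit of 10%, so the part of this difference was not tested.

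**Figure D4:**
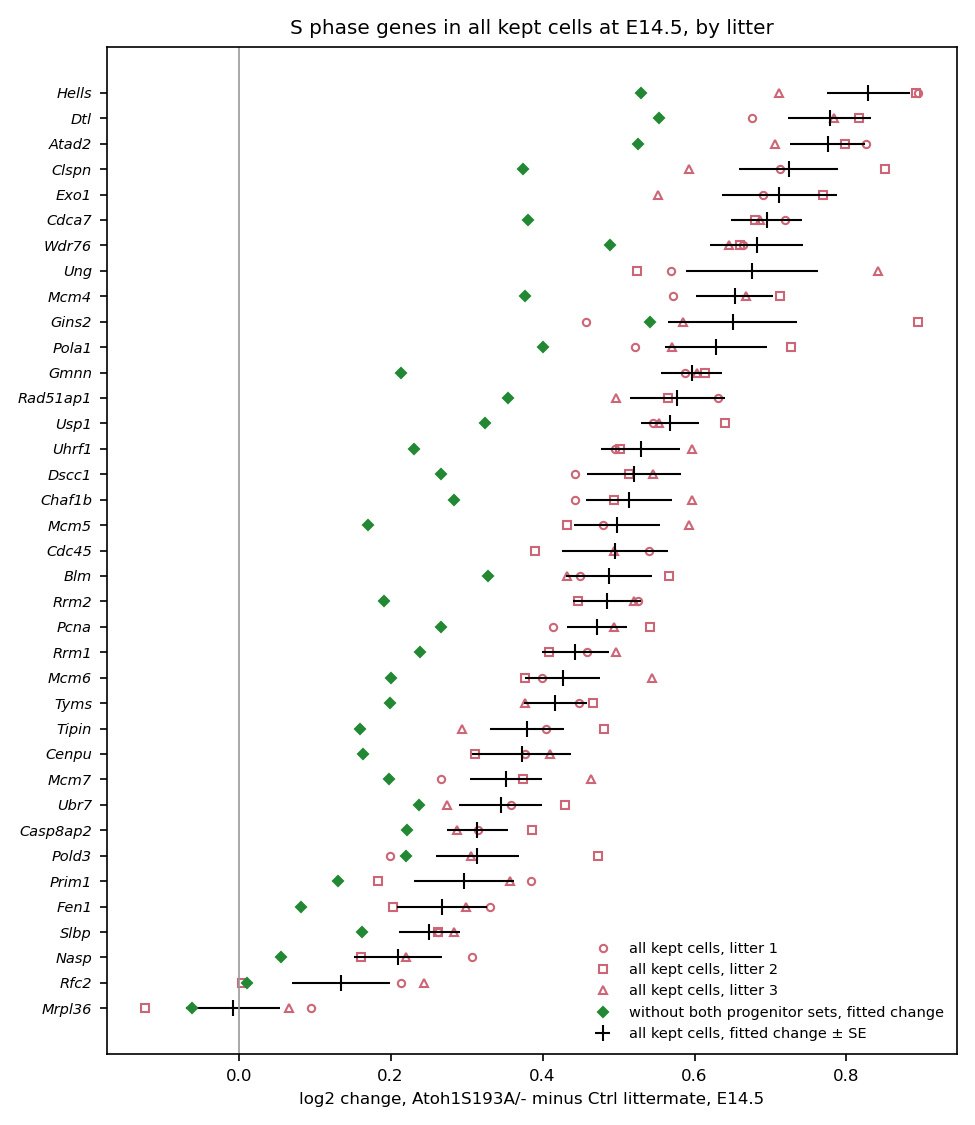
Log2 change of each S phase gene in all kept cells at E14.5, Atoh1S193A/- minus control littermate, with 1 open symbol per litter and the fitted change ± SE of the blocked edgeR fit in black. Green diamonds give the fitted change after pontine progenitor-like cells and the Barhl1-low progenitor cluster were left out, and all 34 lie to the left of the black marks of the same genes. Both sets were high in S phase genes and more frequent in Atoh1S193A/- libraries, so leaving them out lowers the change by itself.

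The genes with the largest fitted rise kept to a narrow range over litters. Hells was higher by 0.89, 0.89 and 0.71 on the log2 scale, with an edgeR adjusted p = 0.0040 in the blocked fit. Dtl was higher by 0.68, 0.82 and 0.78, and Atad2, a chromatin ATPase gene, by 0.83, 0.80 and 0.71. Among the genes of licensing, Gmnn was higher by 0.59, 0.61 and 0.60.

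Values per library show how the litters differ in level. Mcm5 had 35.1, 19.2 and 25.5 CPM in the controls and 49.4, 26.3 and 39.0 CPM in the Atoh1S193A/- littermates. Pcna had 62.9, 35.1 and 47.8 CPM against 84.1, 51.4 and 67.8 CPM, and Rrm2 had 74.3, 39.2 and 52.7 CPM against 107, 53.8 and 76.0 CPM. For all 3 genes the second litter was the lowest in both genotypes, so the groups overlapped although every pair moved the same way. Mrpl36 had 69.5, 64.4 and 65.9 CPM against 74.3, 59.1 and 69.1 CPM and moved in both directions.

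The share of pontine progenitor-like cells, which was not tested between genotypes because Atoh1 and Barhl1 took part in the naming, moved with this result. They were 1.60% ± 0.446 of kept cells in controls and 6.30% ± 1.52 in Atoh1S193A/- libraries (SD, n = 3), and the Barhl1-low progenitor cluster was 4.15% ± 0.696 and 10.1% ± 1.51. Without both sets of cells, the blocked fit called 0 of 34 S phase genes (0.0204% of 9819 genes were called), and the unblocked fit 0 as well. The median log2 change was then 0.23, against 0.01 for all genes. By litter the median difference was 0.35, 0.08 and 0.39, against -0.0019, 0.05 and 0.04 for all genes, so that it was smallest in litter 2. In all 3 litters, 22 of the 34 genes were higher (29.2% of all genes). At an unadjusted p under 0.05 there were 22 of the 34 genes in the blocked fit (21.2% of all genes). Both sets were high in S phase genes and more frequent in Atoh1S193A/- libraries, so leaving them out lowers the difference by itself. Nothing is therefore concluded from the loss of calls, and which part of the rise came from cell number and which from the level per cell was not tested further.

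Within pontine progenitor-like cells no S phase gene was called between genotypes. The summed level was 4625 ± 275 CPM in controls and 4711 ± 555 CPM in Atoh1S193A/- libraries (4156, 5266 and 4710; SD, n = 3), and edgeR called 0 of 41 genes with or without the litter as a block (0.0102% of 9851 genes were called without it and 0.924% with it). No S phase gene had an unadjusted p under 0.05 without the block, Hells and Mcm7 did with it (10.5% of all genes), DESeq2 called 0, and the median log2 change was -0.01. The libraries did not overlap for Slbp, which was higher in Atoh1S193A/- (6.37% of all genes were), and for Fen1, which was lower (2.94% were). Fen1, at 73.7, 75.3 and 75.2 CPM in controls and 68.9, 71.9 and 61.3 CPM in Atoh1S193A/- libraries, had the smallest p, with a log2 change of -0.20 ± 0.12 (SE), followed by Mcm7, an MCM subunit gene, with -0.19 ± 0.12. With 66 to 104 control cells per library, simulated 2-fold changes were found for 66 of 100 genes in this class and 1.5-fold changes for 14 of 100, so smaller differences would mostly be missed.

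In intermediate progenitor-like cells, edgeR called 0 of 27 genes (0.0449% of 8917 genes called), 1 had an unadjusted p under 0.05 (4.92% of all genes) and DESeq2 called 0. Rfc2 was at 54.7, 56.9 and 51.0 CPM in controls and 43.9, 29.9 and 40.1 CPM in Atoh1S193A/- libraries, a log2 change of -0.50 ± 0.17 (SE) with an edgeR adjusted p = 0.768. It was the only gene of the 27 without overlap (4.55% of all genes were lower without overlap). Atad2 was at 7.51, 15.0 and 10.7 CPM against 4.82, 8.47 and 7.69 CPM (-0.67 ± 0.33). Under a finer clustering the log2 change of Rfc2 was 0.000988 and that of Atad2 was 0.71, so neither direction held.

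In E14.5 pontine neuron-like cells edgeR called 0 of 24 genes (0% of 9619 genes; DESeq2 called 0, and 3 genes had an unadjusted p under 0.05, as did 2.35% of all genes). The libraries did not overlap for 8 genes, of which 6 were higher in Atoh1S193A/-, against 8.37% of all genes, and 2 were lower (Gmnn and Mrpl36), against 1.78%. Hells had 6.52, 6.46 and 5.91 CPM in controls and 8.66, 9.80 and 7.73 CPM in Atoh1S193A/- libraries, a log2 change of 0.43 ± 0.15 (SE). Ubr7, a ubiquitin ligase gene, had 18.1, 17.5 and 18.2 CPM against 21.2, 24.1 and 20.8 CPM (0.25 ± 0.11).

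In E14.5 granule progenitor-like cells the summed level was 4652, 5341 and 4685 CPM in controls and 5278, 5152 and 5096 CPM in Atoh1S193A/- libraries, and edgeR called 0 of 41 genes (0% of 9994 genes; DESeq2 called 0, and 0 had an unadjusted p under 0.05). The median log2 change was 0.13, and 5 genes were higher without overlap, against 4.8% of all genes. E2f8 had 25.4, 26.1 and 27.1 CPM against 32.2, 30.9 and 31.7 CPM, a log2 change of 0.25 ± 0.12 (SE). Casp8ap2 had 97.7, 109 and 118 CPM against 120, 139 and 130 CPM (0.24 ± 0.12). With the litter as a block edgeR called 0 of the 41 (1.29% of all genes), 11 had an unadjusted p under 0.05 (13.2% of all genes), and 19 of 41 were higher in all 3 litters, against 20.7% of all genes.

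At E18.5 no S phase gene was called between genotypes in any class tested. Over all kept cells the summed level was 3023, 3193 and 2599 CPM in controls and 3167, 3307 and 2492 CPM in Atoh1S193A/- libraries, and edgeR called 0 of 40 genes (0% of 9735 genes), with 0 at an unadjusted p under 0.05, 0 by DESeq2 and a median log2 change of 0.02. The smallest p belonged to Cdca7 (log2 change -0.14) and E2f8 (0.19). In granule neuron-like cells 0 of 20 genes were called (0% of 9122 genes), and in pontine neuron-like cells 0 of 23 (0% of 9808 genes), again with 0 at an unadjusted p under 0.05 and 0 by DESeq2. The genes with the smallest p in those classes were Usp1 (0.12) and Blm (0.13) in granule neuron-like cells, and Mcm7 (-0.23) and Mcm6 (-0.16) in pontine neuron-like cells.

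In E18.5 granule progenitor-like cells, the most deeply sampled progenitor class, edgeR called 0 of 41 genes (0.394% of 9653 genes called), 4 had an unadjusted p under 0.05 (6.69% of all genes) and DESeq2 called 0. The summed level was 5270, 5405 and 5104 CPM in controls and 5460, 5482 and 5413 CPM in Atoh1S193A/- libraries, so it was higher in each of the 3 litters and did not overlap. The median log2 change in the fit without the block was 0.03. With the litter as a block edgeR called 0 of the 41 (2% of all genes), 6 had an unadjusted p under 0.05 (13.4% of all genes), and 19 were higher in all 3 litters, against 21.9% of all genes. Clspn had 116, 125 and 113 CPM in controls and 141, 132 and 137 CPM in Atoh1S193A/- libraries, a log2 change of 0.19 ± 0.05 (SE) with an edgeR adjusted p = 0.323. Rad51ap1 had 112, 112 and 104 CPM against 124, 124 and 123 CPM, with 0.15 ± 0.04. These were among 7 genes that were higher without overlap, against 6.03% of all genes, and both had changes below the size needed for a call. In this class 100 of 100 simulated 2-fold changes and 83 of 100 simulated 1.5-fold changes were found.

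The second question was how the S phase genes changed from E14.5 to E18.5. Over all kept cells of controls, 30 of 38 genes rose and 0 fell, where 50.5% of all genes changed and 26% rose. The median log2 change was 0.87, against 0.01 for all genes. By role, 7 of 7 licensing and helicase genes rose, 4 of 7 polymerase and clamp genes, 2 of 3 nucleotide genes, 6 of 8 chromatin genes and 7 of 8 checkpoint genes.

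Ccne2 rose most, from 6.47, 3.98 and 5.96 CPM to 16.8, 27.3 and 19.5 CPM, a log2 change of 1.88 ± 0.25 (SE) with an edgeR adjusted p = 0.00126. Rad51ap1 rose from 17.4, 9.43 and 16 CPM to 57.3, 59.3 and 45.6 CPM (1.84 ± 0.23, edgeR adjusted p = 0.00105). Atad2 rose from 32.4, 21.4 and 38.8 CPM to 116, 117 and 97.3 CPM (1.75 ± 0.22, edgeR adjusted p = 0.00101). No E18.5 library reached down to the E14.5 values for these genes. Granule progenitor-like cells were 9.78% ± 4.84 of kept control cells at E14.5 and 36.6% ± 4.19 at E18.5 (SD, n = 3). Their share of the S phase UMIs, which rests on the same counts as the rise, was 34.4% and 79.6%. Which part of the rise came from cell number and which from the level per cell was not tested.

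In Atoh1S193A/- libraries 13 of 40 genes rose and 0 fell (31.8% of all genes changed and 15.9% rose), with a median log2 change of 0.40. None of the 8 licensing genes was among them, and 5 of 8 checkpoint genes were. Ccne2 rose by a log2 change of 1.41 ± 0.17 (SE; edgeR adjusted p = 0.0025), Rad51ap1 by 1.40 ± 0.26 (edgeR adjusted p = 0.00916) and Atad2 by 1.07 ± 0.23 (edgeR adjusted p = 0.0144). The count of 13 moved between 4 and 17 when 1 library was left out. Those counts were not set against the share of all genes called in the same fits.

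The difference between the genotypes in the stage change was tested as an interaction, in which a negative estimate stands for a smaller excess of Atoh1S193A/- over control at E18.5 than at E14.5. Without a litter term edgeR called 0 of 40 genes (0% of 9913 genes), with 7 at an unadjusted p under 0.05 (7.05% of all genes) and 0 by DESeq2. All 40 estimates were negative, with a median log2 difference of -0.46. Hells had the smallest p, with -0.85 ± 0.23 (SE) and an edgeR adjusted p = 0.553, followed by Blm with -0.44.

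With the litter within its stage as a block, a fit added after the data were seen, edgeR called 32 of the 40 genes, all of them lower. In that fit 14% of all genes were called, 8.29% as lower, and the median log2 difference of the 40 was -0.47, with all 40 estimates negative. Hells stood at -0.86 ± 0.07 (SE; edgeR adjusted p = 0.00304), the MCM subunit gene Mcm4 at -0.65 ± 0.06 and the chromatin factor gene Cdca7 at -0.83 ± 0.07, the 3 smallest p. By the file headers, the E14.5 controls of litters 1 and 2 differ from the other libraries in Cell Ranger version. The share of progenitor cells moved with the E14.5 difference. A smaller share of barcodes passed the limits on genes and mitochondrial UMIs in each E14.5 control than in its littermate. The part of each of these in this result was not tested. The E14.5 and E18.5 comparisons within genotypes use the same libraries as this test.

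Within granule progenitor-like cells, the change in controls was smaller and went both ways. The stages were clustered separately, and the class was made of 2 clusters at E14.5 (1738 cells led by Hist1h2ap and Top2a, and 1517 led by Pvalb and Sp5) and of 8 at E18.5, so a change in the mix of dividing cells and a change of level within them cannot be told apart. Of 41 genes 14 rose and 6 fell, where 41.7% of all genes changed (21.6% rose and 20.1% fell), and the median log2 change was 0.11, against 0.01 for all genes. The share called was thus close to the background. The count also depended on single libraries, as given below with the other alternatives. With finer clusters 19 rose and 2 fell, counts that were not set against the share of all genes called under that clustering. By role, 4 of 8 checkpoint genes rose and 0 fell, 4 of 8 chromatin genes rose and 2 fell, 2 of 7 polymerase and clamp genes rose and 1 fell, and 1 of 2 regulators rose. Of the licensing genes 0 of 8 rose and 1 fell (Gmnn), and of the nucleotide genes 0 of 3 rose and 2 fell (Rrm2 and Tyms).

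Ccne2 rose from 20.9, 22.2 and 19.9 CPM to 32.1, 51.4 and 43.8 CPM, a log2 change of 0.98 ± 0.18 (SE) with an edgeR adjusted p = 0.00334. Rad51ap1 rose from 63.3, 66.5 and 66.7 CPM to 112, 112 and 104 CPM (0.70 ± 0.08, edgeR adjusted p = 0.000303). Dtl rose from 64.3, 75.9 and 67.4 CPM to 112, 109 and 100 CPM (0.59 ± 0.09, edgeR adjusted p = 0.00135). The 3 genes had no overlap between stages.

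The largest falls in controls were those of Dscc1, a subunit of the alternative clamp loader for cohesion, Rrm2 and Chaf1b, a subunit of the histone chaperone CAF-1. Dscc1 fell from 55.0, 57.6 and 45.8 CPM to 31.9, 36.3 and 30.6 CPM (log2 change -0.71 ± 0.11, SE; edgeR adjusted p = 0.00143). Rrm2 fell from 272, 341 and 216 CPM to 195, 169 and 165 CPM (-0.69 ± 0.14, edgeR adjusted p = 0.00572). Chaf1b fell from 83.3, 75.3 and 52.9 CPM to 52.0, 56.4 and 43.8 CPM (-0.50 ± 0.15, edgeR adjusted p = 0.0273), and it was the 1 gene of the 6 whose stages overlapped. Its call was lost with finer clusters and without E14.5 library 1 or 2 or E18.5 library 1 or 3. The file headers name Cell Ranger 3.1.0 for the E14.5 control libraries 1 and 2 and 5.0.1 for all others. Without these 2 libraries 1 was left at E14.5, which was assumed to vary like the E18.5 libraries, so no calls are given for that fit. Its log2 changes were -0.56 for Dscc1, -0.38 for Rrm2, -0.15 for Chaf1b and 1.01 for Ccne2.

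**Figure D5:**
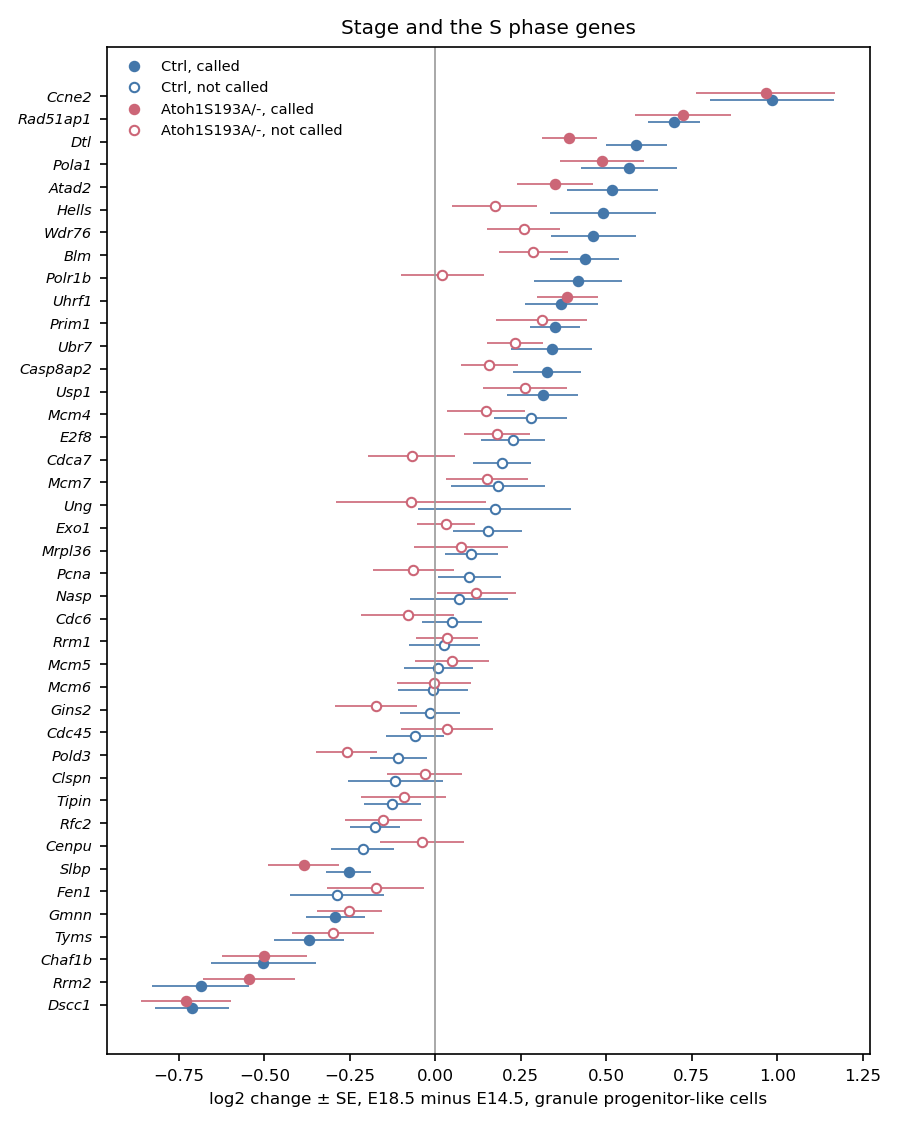
Log2 change ± SE from E14.5 to E18.5 of each S phase gene in granule progenitor-like cells, with controls in blue and Atoh1S193A/- in red, filled where called by edgeR and open where not. Genes are ordered by the control change, with Ccne2, Rad51ap1 and Dtl at the top and Dscc1, Rrm2 and Chaf1b at the bottom.

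In Atoh1S193A/- granule progenitor-like cells 6 of 41 genes rose and 4 fell (26.9% of all genes changed, 13.5% higher and 13.4% lower), with a median log2 change of 0.03. With finer clusters 8 rose and 1 fell, again without the share of all genes called under that clustering. Ccne2 rose from 18.6, 27.7 and 24.3 CPM to 35.7, 48.8 and 56.1 CPM (0.97 ± 0.20, SE; edgeR adjusted p = 0.0115). Rad51ap1 rose from 84.9, 58.3 and 73.3 CPM to 124, 124 and 123 CPM (0.72 ± 0.14, edgeR adjusted p = 0.00858). Pola1, the catalytic subunit gene of the primase-bound polymerase alpha, had the third largest rise, from 37.4, 48.3 and 49.1 CPM to 63.96, 63.5 and 66.6 CPM (0.49 ± 0.12, edgeR adjusted p = 0.0225).

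The largest falls in Atoh1S193A/- libraries were again those of Dscc1, Rrm2 and Chaf1b. Dscc1 fell from 61.6, 53.5 and 50.8 CPM to 36.9, 36.4 and 29.4 CPM (-0.73 ± 0.13, SE; edgeR adjusted p = 0.00629). Rrm2 fell from 314, 305 and 227 CPM to 219, 195 and 180 CPM (-0.55 ± 0.13, edgeR adjusted p = 0.0211), and Chaf1b from 88.2, 71.4 and 66.9 CPM to 54.4, 58.4 and 51.8 CPM (-0.50 ± 0.12, edgeR adjusted p = 0.0212). Leaving out 1 E18.5 library moved the count of 10 genes to 4 for each of the 3, a count not set against the share of all genes called. It ended the call of Pola1 for each of them, of Rrm2 for libraries 2 and 3 and of Chaf1b for libraries 1 and 3. Both falls were also lost with finer clusters, and that of Rrm2 without E14.5 library 1, while Dscc1 was called under every alternative.

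The interaction of genotype and stage in granule progenitor-like cells gave 0 called of 41 genes by edgeR (0% of 9874 genes) and 0 by DESeq2, with 1 at an unadjusted p under 0.05 (3.83% of all genes). With the litter within its stage as a block it called 0 of the 41 (0.223% of all genes), with 6 at an unadjusted p under 0.05 (12.6% of all genes). Without the block the median log2 difference was -0.04, with 14 positive and 27 negative estimates. Polr1b (-0.40) and Dtl (-0.20) had the smallest p.

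A list of 49 other replication genes and a list of 54 genes of G2 and M phase were followed beside the S phase genes. From E14.5 to E18.5 in all kept cells of controls, 37 of 47 other replication genes rose (26% of all genes rose), led by the replication initiator gene Mcm10 (log2 change 1.74), the repair gene Brca1 (1.63) and the polymerase epsilon gene Pole (1.55). Of 51 genes of G2 and M phase, 47 rose and 1 fell, led by Mki67 (2.56), which encodes the proliferation marker Ki-67, Lbr (2.05) and Anln (2.03). In control granule progenitor-like cells, where 21.6% of all genes rose and 20.1% fell, 11 of 49 other replication genes rose and 3 fell. Those that fell were the histone chaperone gene Asf1b (-0.79), the cyclin E1 gene Ccne1 (-0.50) and Rpa2 (-0.39). Of 54 genes of G2 and M phase 12 rose and 6 fell, and the largest falls were those of Jpt1 (-0.72), Aurka (-0.65) and Psrc1 (-0.52). For this class only genes that fell are named, although more genes of both lists rose. With the litter as a block, 30 of 43 other replication genes and 41 of 48 genes of G2 and M phase rose in Atoh1S193A/- embryos at E14.5 over all kept cells, and 1 gene of G2 and M phase fell, where 9.82% of all genes were called as higher and 6.79% as lower.

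In the P5 pontine nuclei, which hold mostly neurons, the summed level over all kept cells was 798 and 922 CPM in the 2 control libraries. Pontine neuron-like cells stood at 708 and 700.4 CPM, below all kept cells, and gave 65.2% and 53.1% of the S phase UMIs. They held 136115593 of the 185029057 UMIs of all kept cells in the first library and 89000312 of 127259474 in the second. In these cells Pcna remained at 34.3 and 43.7 CPM, Mcm6 at 13.4 and 12 CPM and Rrm2 at 6.04 and 6.85 CPM. The median cell held 3 S phase UMIs after thinning to 5000, and 0.491% and 0.409% of cells held 10 or more. No test of age was made, since the P5 tissue was dissected differently.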

How the data were processed

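Single-cell libraries were made by the authors with 10x 3′ v3 chemistry, and the deposited matrices hold UMI counts per gene and cell barcode, which the authors obtained with Cell Ranger (3.1.0 per the file headers for E14.5 control libraries 1 and 2, 5.0.1 for the other 12; the labels and the study's methods name 5.0.1 for all) against mm10 with the GENCODE M21 annotation. No normalization had been applied. Levels of different genes were not compared, since 3′ UMI counts depend on each transcript.

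Of 150188 barcodes, 86757 with at least 1000 genes and under 5% mitochondrial UMIs remained, and removal of the highest 7.5% of Scrublet scores in each library left 80256. Shared barcodes made up at most 0.624% of the smaller library of any pair. Clusters were found separately per stage in scanpy 1.11.5 (Python 3.11.15) by leidenalg 0.10.2 (resolution 1.0), on a graph that drew 3 neighbours from each embryonic library and 9 from each P5 library. Cell cycle and replication lists, sex-linked and mitochondrial genes were left out. Limits on marker means that named the clusters were set after those means were seen. The S phase genes, lists and classes were chosen with earlier results of these data known.

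UMIs were summed per library and class and tested with edgeR 4.0.16 (R 4.3.3, TMM scaling, quasi-likelihood F test, Benjamini-Hochberg adjustment over every gene detected in 10% or more of the cells), and a call needed an adjusted p under 0.05 and a log2 change over 0.25 in size. Genotypes were compared within stages and stages within genotypes, without a litter term. DESeq2 1.42.0, its size factors, no filter, a mitochondrial limit of 10%, no doublet removal, Leiden resolution 2.0, each library left out and a litter block were alternatives. The fits without the pontine progenitor-like cells and the Barhl1-low progenitor cluster, the interaction with a litter block and the choice of the balanced graph, were added after the data were seen. The fit was tested on simulated counts.

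The labels give 1 embryo per genotype and littermate controls. Same-numbered libraries of a stage deviated together (correlations of 0.52, 0.83 and 0.76 at E14.5 and 0.80, 0.83 and 0.92 at E18.5 over all kept cells), so that the numbers pair the libraries. Genes named per comparison were the called ones, or the 3 with the largest rise and fall where more than 5 were called, or the 2 with the smallest p where none was; for classes, the 5 lowest and highest shares with role examples; for the other lists, up to 3 called per direction. Genes named from the blocked fit, the highest-class genes, genes singled out by overlap or role and the granule examples were chosen after their values were seen. Promoter windows of Atad2, Ccne2, Dscc1, Exo1, Gins2, Gmnn, Mcm4, Rfc2, Tipin and Usp1 were not used here. Errors are SDs over libraries or SEs of a fit over libraries.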

Additional observations from a re-analysis of the deposited data

Results flagged for a closer look

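A signal for the S phase genes appeared in cells outside every comparison. In the second P5 control library, 295 cells formed most of a cluster of 299 cells led by the histone gene Hist1h1b, the cyclin gene Ccnd2 and Insm1, which marks neuronal precursors. The limits on marker levels pointed to the granule progenitor-like class, but none of that class's markers and 1 marker of migrating neurons stood among its 10 leading genes, so it stayed unnamed. Summed over the 41 genes it stood at 5232 CPM, above the 708 and 700.4 CPM of P5 pontine neuron-like cells, and its median cell held 22 S phase UMIs after thinning to 5000 UMIs, with 87.6% of cells at 10 or more. Mcm6 was at 193 CPM, Pcna at 242 CPM, Hells at 216 CPM and Rrm2 at 158 CPM. The cluster gave 19.4% of that library's S phase UMIs, and the same library held 419 granule neuron-like cells, against 10 in the first. With 1 library there was no test, and whether tissue outside the pontine nuclei was included in the dissection was not tested.

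The difference between genotypes over all kept cells was called unequal between the embryonic stages only in a fit that paired littermates, which was added after the data were seen. With the litter within its stage as a block, the edgeR test of the interaction called 32 of 40 S phase genes, all with a negative estimate. In that fit 14% of all genes were called and 8.29% were called as lower, while the test without the block called 0. The median difference between Atoh1S193A/- embryo and control littermate was 0.46, 0.49 and 0.52 on the log2 scale in the E14.5 litters and 0.07, 0.06 and -0.07 in the E18.5 litters.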

How the results depend on the processing

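Of the counts of called S phase genes under each alternative, 149 stayed within 1.5 times the reported count and 16 did not. Every genotype comparison and interaction had a reported count of 0, so the 149 include counts that stayed at 0. Only the stage changes had reported counts above 0. Of the single-gene values, 408 kept their sign and stayed called or stayed uncalled, 18 lost a call, 6 gained a call and 2 changed sign. The 408 include genes of the genotype comparisons and interactions that had no call to keep. For the genotype comparison over all kept cells at E14.5, the count of 0 became 3 with DESeq2 (205 of 9972 genes) and 34 with the replicate block, and the block changed no other call of an S phase gene between genotypes within a stage. For the interaction of genotype and stage over all kept cells, the count of 0 became 32 with the replicate block (litter within stage; added after the data were seen). For the stage change in controls, leaving out 1 library gave 25 to 37 over all kept cells and moved the count of 20 in granule progenitor-like cells between 11 and 21 (13 without E14.5 library 1 or 2, 11 without E18.5 library 1 or 2 and 12 without E18.5 library 3). With the libraries whose headers name Cell Ranger 5.0.1 alone, the lone E14.5 library was assumed to vary like the E18.5 libraries, so no count is given. For the stage change in Atoh1S193A/- embryos, leaving out 1 library moved the count of 13 over all kept cells between 4 and 17 (8 and 6 without E14.5 libraries 1 and 3, 4 and 5 without E18.5 libraries 1 and 2) and the count of 10 in granule progenitor-like cells between 4 and 13 (4 without each E18.5 library). Finer clusters (Leiden resolution 2.0), which regroup the cells, turned 14 higher and 6 lower in control granule progenitor-like cells into 19 and 2, and in Atoh1S193A/- cells 6 and 4 into 8 and 1. Neither these counts nor those with 1 library left out were set against the share of all genes called in the same fits. Whether such changes are particular to the S phase genes was therefore not tested. In intermediate progenitor-like cells the fall of Rfc2 was lost with finer clusters (log2 change from -0.50 to 0.000988), and that of Atad2 was reversed (from -0.67 to 0.71). The cause was not tested further. Simulated 2-fold changes were found for 87 of 100 genes over all kept cells at E14.5, 66 of 100 in E14.5 pontine progenitor-like cells and 100 of 100 in E18.5 granule progenitor-like cells. For 1.5-fold changes these numbers were 25, 14 and 83 of 100. The part of depth in this was not tested.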

Other observations

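At P5, non-neuronal classes that were sorted with the pontine neurons also held S phase transcripts. Microglia-like cells (610 and 405 cells) stood at 1774 and 1553 CPM summed over the 41 genes and oligodendrocyte lineage-like cells (908 and 284 cells) at 1217 and 1272 CPM. In microglia-like cells Pcna was at 98.1 and 107 CPM, Mcm6 at 69.5 and 53.7 CPM and Hells at 64.2 and 48.9 CPM. The median cell of both classes held 4 S phase UMIs after thinning to 5000, while 28.6% and 24.5% of microglia-like and 18.9% and 22.01% of oligodendrocyte lineage-like cells held 10 or more. Of the 41 genes, 32 had a UMI in at least 10% of microglia-like cells and 33 in oligodendrocyte lineage-like cells. These cells are values of 2 libraries with no comparison group.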
